A study of Danio rerio with 6 samples.

Results

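Neutrophils are short-lived phagocytes that zebrafish, like other teleosts, produce in adult life in the kidney marrow. They store enzymes in granules, kill microbes with an NADPH oxidase that makes superoxide, find their targets through chemokine and leukotriene receptors, and depend for their output on the receptor for granulocyte colony-stimulating factor. The genes described here are 33 listed symbols for granule proteins, oxidase subunits, surface receptors, leukotriene B4 enzymes and receptors, and other genes with high expression in neutrophils. Matched without regard to case to the symbols of the Ensembl identifiers, 25 of the 33 symbols were found, and since the symbol CXCR1 names a pair of features they gave 26 of the 32267 features in the table. The symbols mpx, mmp13a.1, cpa5, lect2l, timp2b, cxcr2, alox5a and plekhs1 matched none of the identifiers used here. The cofilin-like gene cfl1l was listed at 0 in all 6 libraries. The other 25 features had a mean of at least 10 normalized counts over the 6 libraries, the level needed to enter the comparison, which 20782 features in all reached.

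RNA came from whole kidney marrow that had not been sorted into cell types, in fish of the TLEK background. Control fish were wild type (3 libraries), and il7 mutant fish (3 libraries) lacked exons 2 to 4 of il7 through an internal deletion; the gene encodes interleukin 7, a cytokine known for its role in lymphocyte development. The labels give no age, sex or treatment, do not say whether the deletion was homozygous or how many fish went into a library, and so the spread behind each p-value is that between libraries and may be technical. The study asked about lymphocytes, and neutrophil genes are described here as the other main white cell product of the same tissue.

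Taking the smallest value above 0 in a library as 1 read, of which the other values were whole multiples, the depth was 34496353 to 46120889 reads per library over all genes; it is an estimate from the normalized values. The targeted gene il7 stood at 89.8, 61.6 and 57.7 normalized counts in control 1, 2 and 3 and at 16.5, 17.8 and 4.00 in il7 mutant 1, 2 and 3, so no mutant library reached a control library. A two-sided exact permutation test of these il7 values returned p = 0.1, and 3 against 3 libraries allow none smaller. Transcripts of other tissues were uneven. The summed normalized counts of 6 oocyte genes were 121973 in control 1 and 63486 in il7 mutant 2, with zp3b adding the most counts, against 129 to 231 in the other 4 libraries. Kidney tubule genes summed to 70996 to 184425 in controls and 124109 to 147106 in mutants, with CDH17 adding the most counts, and erythroid genes to 63773 to 341412 in controls and 173723 to 464226 in mutants, with hbaa1 adding the most and klf1 at 0 in all 6. In unsorted tissue, fewer neutrophils and less RNA per neutrophil cannot be told apart.

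No neutrophil gene passed the test. On log2(normalized count + 1), limma called 0 of the 25 fitted neutrophil features at a Benjamini-Hochberg adjusted p under 0.05, where it called 0 of all 20782 fitted genes (0.0%). At an unadjusted p under 0.05 there were 0 of 25, beside 723 of 20782 (3.48%) over all genes. Of the 25, 1 gene (mmp13a) had an unadjusted p under 0.05 in the authors' deposited table, beside 4.23% of all genes there. Limma did not call the targeted gene il7 either, at a change of −2.55 (SE 0.66) and an unadjusted p of 0.0070. In the authors' deposited table il7 had an adjusted p of 0.0403. The limma count of 0 is thus not a finding of no change. Neutrophil transcripts were present in quantity in every library, and lyz alone held between 91519 and 180516 normalized counts. The median log2 change over the 25, mutant minus control, was −0.093, against −0.036 over all fitted genes, and 19 of the 25 had a negative sign, against 54.1% of all fitted genes. That count rested on single libraries: without control 2 it was 8 of 25, against 54.4% of all genes fitted then, and without il7 mutant 3 it was 11 of 25, against 50.4%. For 14 of the 25 the 95% interval of the change lay wholly within 1 log2 unit of 0 on either side. For the other 11 these data leave room for a change of that size.

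**Figure D1:**
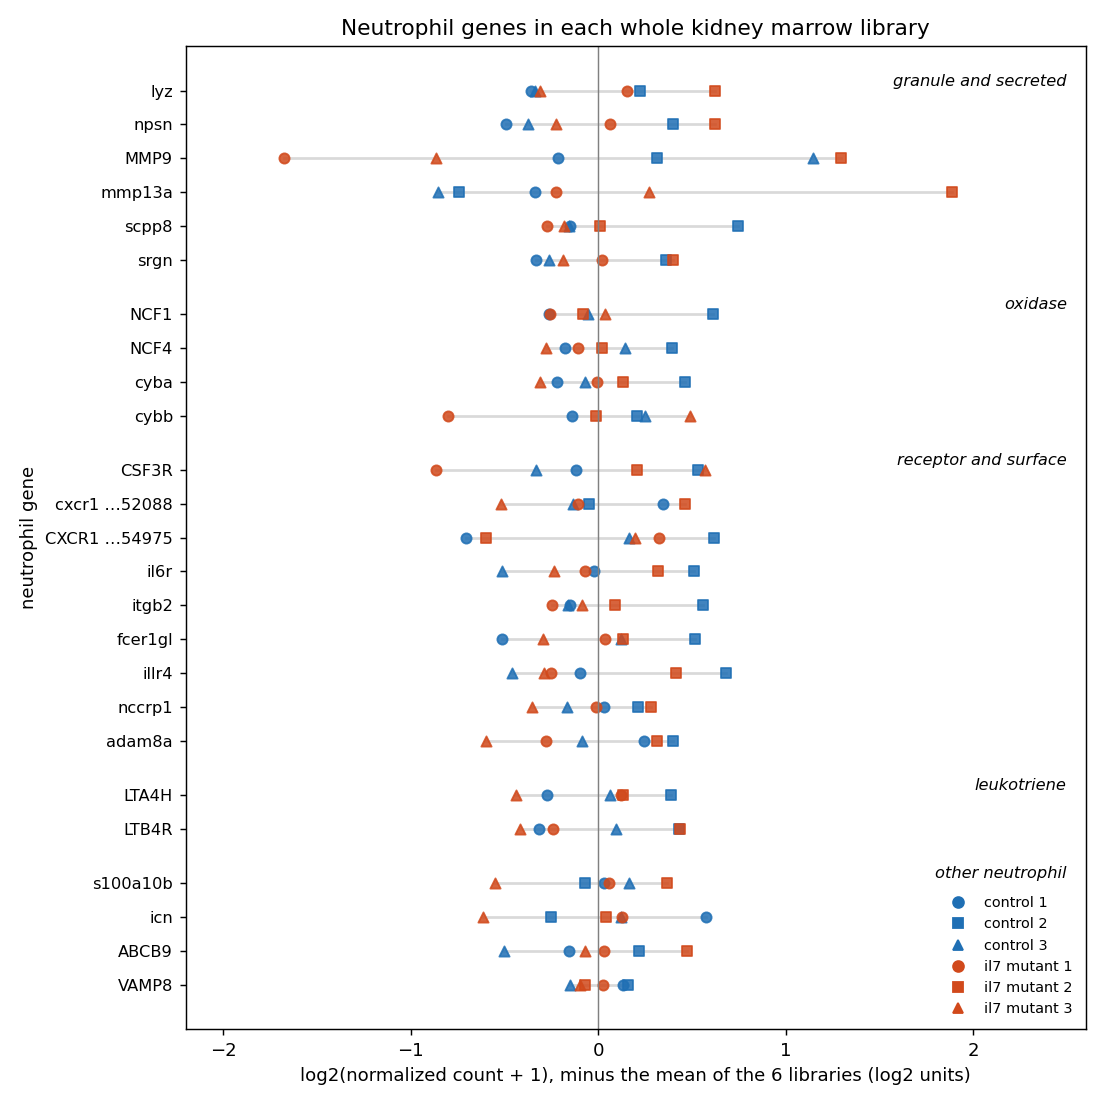
Each row is 1 neutrophil gene and each point 1 library (controls blue, il7 mutants orange), placed at its log2(normalized count + 1) minus the mean of the 6 libraries, in log2 units. For 22 of the 25 genes the rightmost point is control 2 or il7 mutant 2, the squares, and mmp13a is the only row in which no orange point lies left of a blue one.

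The granule and secreted proteins were the group with the most varied changes, −0.83 to 1.29 on the log2 scale over 6 fitted genes, with 4 positive, 2 negative and a median of 0.23. That median was −0.11 without control 1 and il7 mutant 2 and −0.044 with array quality weights. The collagenase gene mmp13a (ENSDARG00000012395), whose product cleaves fibrillar collagen, had normalized counts of 6083, 4591 and 4259 in control 1, 2 and 3 and 6569.7, 28392 and 9275 in il7 mutant 1, 2 and 3. Each mutant library stood above each control library, but il7 mutant 1 lay close to control 1 and il7 mutant 2 far above the rest. Averaged over each group the count was 4977 ± 972 (SD, n = 3) for controls and 14746 ± 11895 (SD, n = 3) for mutants, and the limma change was 1.29 (SE 0.54) with a 95% interval from −0.014 to 2.59, an unadjusted p of 0.0519 and an adjusted p of 1.00. Without il7 mutant 2 the change was 0.67. When both oocyte-rich libraries (control 1, il7 mutant 2) were omitted, it was 0.82. In the authors' deposited table mmp13a had an unshrunken log2 fold change of 1.57, 1.08 after shrinkage, with an unadjusted p of 0.0105 and an adjusted p of 0.499. Over all fitted genes, 3.51% lay wholly higher in the mutants and 4.44% wholly lower; among the 25 neutrophil genes mmp13a was the 1 that lay wholly higher, and 0 lay wholly lower.

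The gelatinase gene MMP9 (ENSDARG00000042816), also a metalloproteinase gene listed in the granule and secreted group, did not follow mmp13a. Which cells of the unsorted marrow made the MMP9 and mmp13a transcripts was not tested. The normalized counts of MMP9 were 2209, 3179.9 and 5672 in the controls and 802, 6281 and 1405 in the mutants. Thus il7 mutant 2 was the highest of the 6 libraries and il7 mutant 1 and 3 were the lowest. The change was −0.83 (SE 0.78), with an unadjusted p of 0.326 and an adjusted p of 1.00, and it moved to −1.69 without il7 mutant 2 and to −0.20 without il7 mutant 1. Omitting both oocyte-rich libraries gave −2.00 (adjusted p = 0.611). The normalized count of mmp13a divided by that of MMP9, a ratio chosen after the values were seen and given as a description, was 2.75, 1.44 and 0.751 in control 1, 2 and 3 and 8.20, 4.52 and 6.60 in il7 mutant 1, 2 and 3. The mutant ratios all lay above the control ratios. In contrast to the count of mmp13a itself, the ratio in il7 mutant 2 was the lowest of the 3 mutants.

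The major granule transcripts were steadier. Lysozyme C, encoded by lyz (ENSDARG00000057789), cuts bacterial cell walls and is a standard marker of zebrafish myeloid cells; its normalized counts were 91519, 136722 and 92989 in the controls and 130704, 180516 and 94734 in the mutants. Nephrosin, encoded by npsn (ENSDARG00000010423), is an astacin-type protease of fish neutrophils, and stood at 42339, 78743 and 45928 in the controls and 62256, 91961 and 51105 in the mutants. Both genes were highest in il7 mutant 2 and next highest in control 2, and their groups overlapped. The limma changes were 0.31 (SE 0.33) for lyz and 0.31 (SE 0.35) for npsn, with adjusted p of 1.00 for both. The secretory calcium-binding phosphoprotein gene scpp8 had 1234, 2296 and 1229 normalized counts in the controls and 1133, 1380.2 and 1204 in the mutants, so 5 libraries were close together and control 2 stood apart. Its change of −0.30 (SE 0.30) was 0.0039 without control 2. Serglycin, the granule proteoglycan encoded by srgn, ranged from 18062 to 29901, with a change of 0.15 (SE 0.28).

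**Figure D2:**
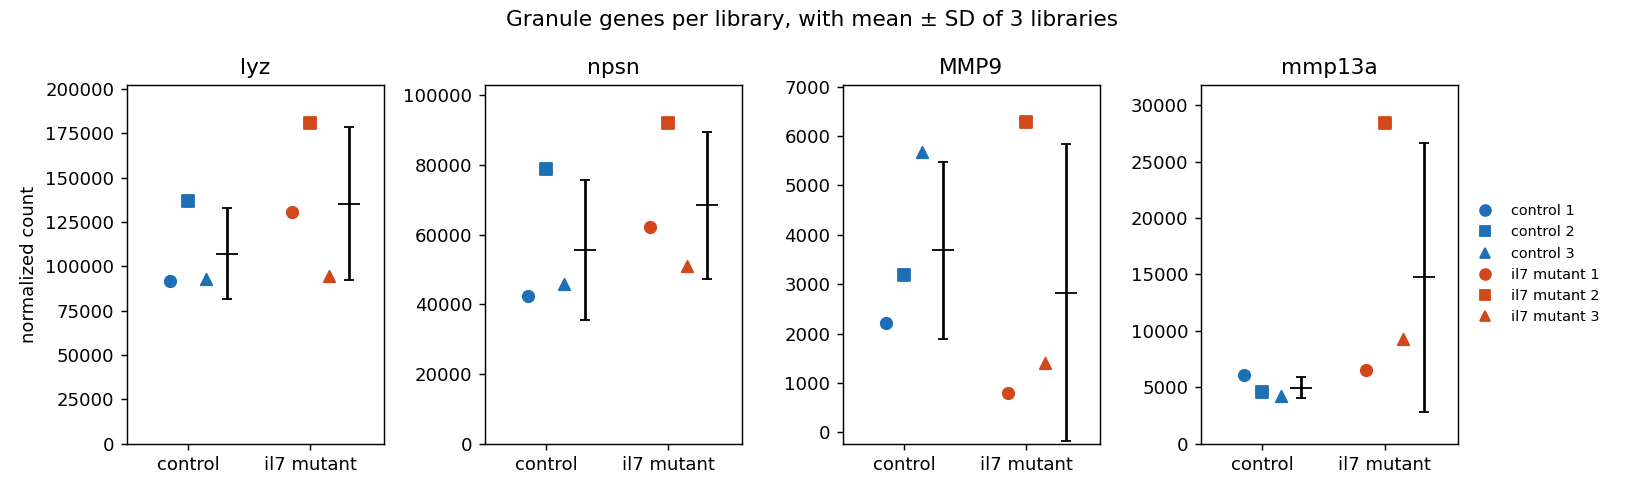
Normalized counts of 4 granule genes in each library, with controls in blue, il7 mutants in orange, and the mean ± SD of 3 libraries in black; each panel has its own vertical axis, and the MMP9 error bar reaches below 0 because its SD in mutants exceeds the mean. The lyz and npsn groups overlap, MMP9 is high in il7 mutant 2 and low in the other mutants, and mmp13a is set apart by il7 mutant 2 at 28392.

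All 4 fitted genes of the NADPH oxidase had a negative sign, with changes from −0.24 to −0.12 and a median of −0.21, and none passed the test. The membrane subunit gene cybb (ENSDARG00000056615), whose product carries electrons to oxygen, had 3587, 4573 and 4701 normalized counts in the controls and 2268, 3930.5 and 5565 in the mutants. The mutants held both the lowest and the highest of the 6 values. Its partner in the membrane, cyba, ranged from 1755 in il7 mutant 3 to 3003 in control 2. The cytosolic organizer gene NCF1 (ENSDARG00000033735) had 5238, 9598 and 6058 in the controls and 5248, 5948 and 6451 in the mutants, and the cytosolic subunit gene NCF4 (ENSDARG00000040812) had 1405, 2085 and 1749.5 and 1474, 1606 and 1309.8. For cyba, NCF1 and NCF4 control 2 was the highest library, and the remaining controls overlapped the mutants. The changes were −0.21 (SE 0.35) for cybb, −0.12 (SE 0.25) for cyba, −0.20 (SE 0.27) for NCF1 and −0.24 (SE 0.22) for NCF4, the last with an unadjusted p of 0.32 and an adjusted p of 1.00. Without control 2 the median change of the 4 genes was −0.024. These subunits are also made by macrophages, whose markers are given below.

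The receptor and surface genes gave the median closest to 0, −0.084 over 9 fitted features, with 8 negative and 1 positive. CSF3R (ENSDARG00000045959), the receptor for granulocyte colony-stimulating factor, had 1282, 2011 and 1106 normalized counts in the controls and 763, 1607 and 2061 in the mutants. The mean was 1466 ± 479.8 in controls and 1477 ± 659 in mutants (SD, n = 3), with il7 mutant 1 lowest and il7 mutant 3 highest. The change was −0.058 (SE 0.43) with a 95% interval from −1.10 to 0.98, so a change of 1 log2 unit downward was within the interval. The chemokine receptor symbol CXCR1 named a pair of low features, of which ENSDARG00000052088 ranged from 61.9 to 123 and ENSDARG00000054975 from 22.1 to 56.6 normalized counts. Their order over the libraries was not the same, since ENSDARG00000052088 was high in control 1 and il7 mutant 2, where ENSDARG00000054975 was low. Whether reads of similar receptor genes were divided between such features was not tested, so both are uncertain.

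Among the adhesion and surface proteins, itgb2 (ENSDARG00000016939), the shared beta chain of the leukocyte integrins, had 6319.9, 10319.8 and 6277 normalized counts in the controls and 5906, 7452 and 6599 in the mutants. The Fc receptor gamma chain-like gene fcer1gl, which encodes a signalling adaptor, had 3308, 6771 and 5145 and 4847, 5175 and 3851. The membrane protease gene adam8a (ENSDARG00000001452) had 5452, 6067 and 4324 and 3786, 5713 and 3030.2. In each of the 3 genes control 2 was the highest library, and the groups overlapped. Their changes were −0.17 (SE 0.26) for itgb2, −0.085 (SE 0.30) for fcer1gl and −0.38 (SE 0.29) for adam8a, which had the smallest unadjusted p of the surface genes at 0.238 and an adjusted p of 1.00. The gene nccrp1, named for a receptor of fish nonspecific cytotoxic cells, was even across the libraries, at 8276, 9379 and 7211 in the controls and 8007, 9831 and 6322 in the mutants (change −0.057 (SE 0.23)). The interleukin 6 receptor gene il6r ranged from 2035 to 4139, with a change of 0.011 (SE 0.31). The lectin-like receptor gene illr4 ranged from 1480.0 to 3273, with a change of −0.084 (SE 0.36). For il6r and illr4 both ends of the range were control libraries.

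Leukotriene B4 is a lipid that attracts neutrophils; LTA4H (ENSDARG00000006029) encodes the hydrolase that makes it and LTB4R (ENSDARG00000032631) a receptor for it. LTA4H had 6607, 10442 and 8335 normalized counts in the controls and 8675, 8744 and 5876 in the mutants. LTB4R had 3397, 5692 and 4514 and 3574, 5702 and 3166. Both were lowest in il7 mutant 3, and the groups overlapped. The changes were −0.12 (SE 0.27) and −0.15 (SE 0.31), with adjusted p of 1.00 for both. Without control 1 and il7 mutant 2 the median of the pair was −0.49, and neither passed the test then.

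Of the 4 other fitted genes, VAMP8 (ENSDARG00000024116), which encodes a vesicle fusion protein, was the steadiest neutrophil gene, with 2898, 2955 and 2379.7 normalized counts in the controls and 2695, 2519 and 2473 in the mutants. The change of VAMP8 was −0.093 (SE 0.18), with a 95% interval from −0.54 to 0.35. The peptide transporter gene ABCB9 had 5571, 7225 and 4382 in the controls and 6339.8, 8638 and 5925 in the mutants, and the S100-type calcium-binding gene icn had 26688, 15049 and 19520.1 and 19559, 18458 and 11703. Both sets of groups overlapped, and the highest value of icn was in control 1, unlike any other neutrophil gene. The changes were 0.29 (SE 0.26) for ABCB9 and −0.30 (SE 0.31) for icn, and that of s100a10b, which encodes an annexin-binding S100 protein, was −0.083 (SE 0.27) over a range from 7611 to 14407.

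The neutrophil genes differed between single libraries more than between the groups. Of the 25 genes, 12 were highest in control 2 and 10 in il7 mutant 2, together 22 (88.0%), against 4906 of all 20782 fitted genes (23.6%). This pair was named after the values were seen, so the comparison is a description. Over all fitted genes 16.1% were highest in control 2, 7.47% in il7 mutant 2 and 31.9% in control 1. The median over the 25 genes of the log2 level minus the mean of the libraries was −0.16, 0.39 and −0.13 in control 1, 2 and 3 and −0.069, 0.28 and −0.28 in il7 mutant 1, 2 and 3. The 3 controls thus spanned a wider range than the distance between the group means, 0.0347 ± 0.312 in controls and −0.021 ± 0.282 in mutants (SD, n = 3). For 13 of the 25 genes the highest library was under 2-fold above the lowest, and for 2, MMP9 and mmp13a, it was 3-fold or more. The spread within groups was close to that of other abundant genes. The residual SD had a median of 0.381 log2 units over the 23 neutrophil genes with a mean of at least 1000, and of 0.373 over all 6398 fitted genes at that level.

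**Figure D3:**
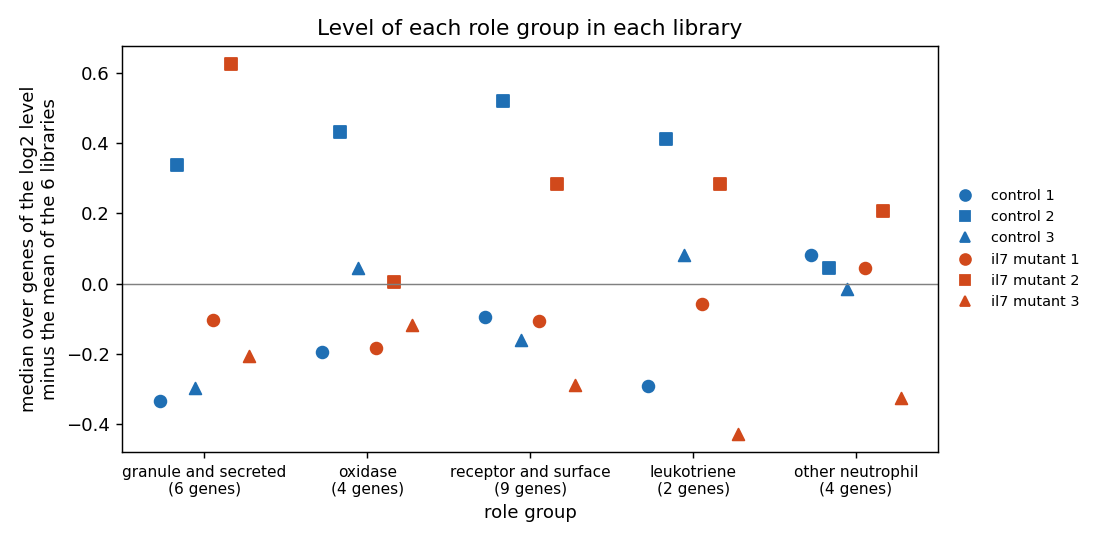
For each role group, the point of a library is the median over its genes of the log2 level minus the mean of the 6 libraries, in log2 units (controls blue, il7 mutants orange). Control 2 is the highest point for the oxidase, receptor and leukotriene genes and il7 mutant 2 for the granule and the other genes, and in no group are blue and orange points apart.

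The role groups did not share one order of libraries. The granule genes had levels of −0.33, 0.34 and −0.30 in control 1, 2 and 3 and −0.10, 0.62 and −0.21 in il7 mutant 1, 2 and 3, with il7 mutant 2 highest. The oxidase genes had −0.20, 0.43 and 0.045 in control 1, 2 and 3 and −0.18, 0.0050 and −0.12 in il7 mutant 1, 2 and 3, with control 2 highest and il7 mutant 2 near the middle. Macrophages share the oxidase and several surface genes with neutrophils. Their markers were summed over 12 features, with marco adding the most counts and 4 of 6 MFAP4 features at 0 in all libraries. The listed macrophage symbols mpeg1.1, mpeg1.2 and mfap4.1 were not found, so the sums lack them. The macrophage sums were 13278, 20485 and 12915 in the controls and 16376, 15455 and 10708 in the mutants. Control 2 was the highest library for these markers also, and il7 mutant 3 the lowest; their part in the neutrophil values was not tested. Mast cell and eosinophil markers were summed over 4 features, with eslec adding the most counts and HDC at 0 in all 6. They ran from 1729 to 5736 in controls and 914 to 3375 in mutants, with control 2 the highest and il7 mutant 2 the lowest. Thrombocyte markers, with GP1BB adding the most counts, were also highest in control 2 (5751). Lymphocyte markers, with ighm adding the most counts, were highest in il7 mutant 1 (8542) and next highest in control 2 (8283). Their lowest sum was in il7 mutant 2 (4107). Erythroid markers were highest in il7 mutant 1 (464226). The high level in control 2 was thus not particular to neutrophil genes. Control 2 was the lowest library for the summed muscle, germ line, and endothelial and stromal genes, and il7 mutant 2 was rich in oocyte genes; the part of these transcripts was not tested.

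Measured against the neutrophil level of its own library, which is the median over the same 25 genes, 4 of the 6 granule genes lay wholly higher in the mutants, while MMP9 and scpp8 overlapped and had lower means there (−0.78 and −0.24 log2 units, mutant minus control). This measure was chosen after the values were seen and is given without a test. On it 5 of 25 genes lay wholly higher in the mutants, the granule genes lyz, npsn, srgn and mmp13a and the transporter gene ABCB9, and 0 lay wholly lower. Over all fitted genes 2.23% lay wholly higher and 2.8% wholly lower on the same measure, and 3.51% and 4.44% without the subtraction. The level came from the 25 genes themselves, so subtracting it removes swings they share, which it need not do for other genes. The shares over all genes are thus not a like baseline for the 5 of 25. For lyz the values in libraries 1, 2 and 3 were −0.20, −0.17 and −0.20 in controls and 0.23, 0.34 and −0.033 in mutants log2 units, and for srgn −0.17, −0.033 and −0.13 in controls and 0.090, 0.11 and 0.086 in mutants. For npsn and mmp13a the gap between the groups was small, with 0.0073 in control 2 against 0.054 in il7 mutant 3 for npsn, and −0.18 in control 1 against −0.16 in il7 mutant 1 for mmp13a. CSF3R and cybb, by contrast, were spread within the mutants, from −0.80 to 0.84 for CSF3R and from −0.73 to 0.77 for cybb.

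Genes that act with these proteins were listed by role, 58 symbols that gave 40 features, of which 39 were fitted. The limma test called 0 of 39 higher and 0 of 39 lower, where 0 of all 20782 were called, and 26 of 39 had a negative sign, against 54.1% of all fitted genes. The partner genes with the smallest p were regulators of granulocyte development. CEBPA (ENSDARG00000036074), which encodes a transcription factor needed for granulocyte formation in mammals, had 15272, 13968 and 14701 normalized counts in the controls and 5492, 7012 and 6453 in the mutants, and cebpg, of the same family, had 4563, 3686 and 4339 and 2804, 2572 and 2466. In both genes every mutant library lay below every control library, with little spread within the groups. The limma change of CEBPA was −1.22 (SE 0.18) with an unadjusted p of 4.23e-04 and an adjusted p of 0.556, and that of cebpg was −0.68 (SE 0.18) with 0.0087 and 1.00. In the authors' deposited table CEBPA had −1.21 as its unshrunken log2 fold change, at an adjusted p of 6.0e-05. There, 112 genes of 21481 (0.521%) had an adjusted p under 0.05, and 0 of the 25 neutrophil genes did. Of the 11 fitted regulators, 5 lay wholly lower in the mutants and 0 wholly higher, beside 4.44% and 3.51% of all fitted genes. The 5 were CEBPA, cebpg, CEBPB, CEBPD and IRF8, the last 3 named after their values were seen. Of these, only CEBPA passed in the authors' deposited table. The adjusted p there was 0.199 for cebpg, 0.688 for CEBPB, 0.587 for CEBPD and 0.9999 for IRF8. The groups overlapped for every other fitted regulator. Among the overlapping regulators the limma change was positive for cebp1 (0.18), spi1a (0.12), gfi1aa (0.60) and MYB (0.26). It was negative for GFI1B (−0.30) and RUNX1 (−0.040). The list was chosen with earlier results of these data known, so its count beside these shares is a description, not a test. A gene did not have to raise neutrophil output to be listed, so lower counts need not mean fewer neutrophils. Which cells of the unsorted marrow made these transcripts was not tested.

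**Figure D4:**
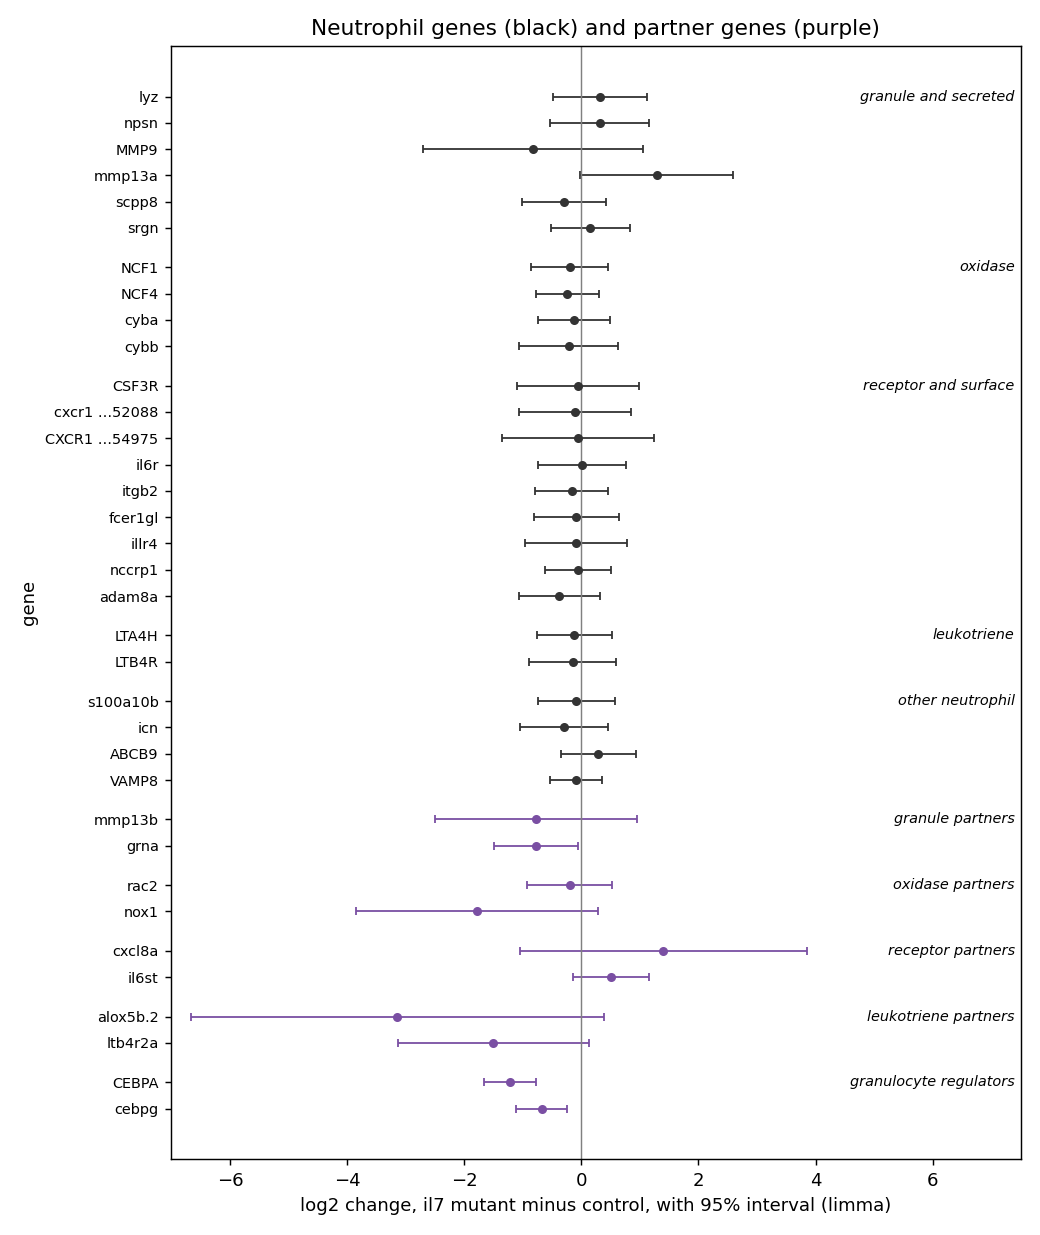
Limma log2 change, il7 mutant minus control, with its 95% interval for the 25 neutrophil genes (black) and for the 2 genes with the smallest p in each list of partner genes (purple). All black intervals cross 0, mmp13a barely, and the intervals of CEBPA, cebpg and grna lie below 0 without passing the adjusted threshold.

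No partner list held a gene called by limma. Among granule partners, grna, which encodes a progranulin, had 2208, 3475 and 4608 normalized counts in the controls and 2022, 1977 and 1772 in the mutants (change −0.77 (SE 0.30), adjusted p = 1.00), and the collagenase gene mmp13b had a change of −0.77 (SE 0.72). For grna every mutant library lay below every control library. Among oxidase partners, the oxidase gene nox1 ranged from 10.99 to 179.6 (change −1.78 (SE 0.86)), and rac2, the GTPase that activates the oxidase, had a change of −0.20 (SE 0.30). Among receptor partners, il6st, the signalling chain used by the interleukin 6 receptor, had a change of 0.51 (SE 0.27), and the chemokine gene cxcl8a had 10.2, 21.2 and 7.77 in the controls and 17.7, 154 and 12.99 in the mutants (change 1.40 (SE 1.02)). The high value of cxcl8a was in il7 mutant 2, the library in which mmp13a and MMP9 were also highest. The ligand gene csf3b was likewise uneven, at 194 in control 1 and 30.7 in il7 mutant 2 and between 2.36 and 5.05 elsewhere; it was named after its values were seen. Among leukotriene partners, the lipoxygenase gene alox5b.2 had 693, 3098 and 1342 and 669.6, 13.9 and 423 (change −3.14 (SE 1.46)), and the receptor gene ltb4r2a had 59.9, 35.4 and 17.8 and 8.25, 20.8 and 7.99 (change −1.50 (SE 0.68)). The alox5b.2 groups did not overlap, but its change was −1.42 without il7 mutant 2.

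Limma called none of the fitted features with names related to the symbols that were not found, and none can be equated with those symbols. A feature named LECT2 (ENSDARG00000033227), after a leukocyte-derived chemotactic protein, had 26026, 42818 and 22264 normalized counts in the controls and 39724, 39396 and 27529 in the mutants. Another feature of that name, ENSDARG00000090889, had a change of 0.16 (SE 0.26). The pair of features named TIMP2, an inhibitor of metalloproteinases, had changes of 0.26 (SE 0.41) for ENSDARG00000061226 and −0.18 (SE 0.31) for ENSDARG00000075261. One of the features named ALOX5, the enzyme that starts leukotriene synthesis, ENSDARG00000043085, had 1199.7, 3669 and 9469 in the controls and 2937, 43.6 and 4388 in the mutants. Its value in il7 mutant 2 stood far below the other 5 libraries, as did that of alox5b.2, so its change of −2.06 (SE 1.81) had a wide error. The other ALOX5 feature, ENSDARG00000057273, had a change of −0.025 (SE 0.41). Of the features plekhs1.1 to plekhs1.4, plekhs1.1 was listed at 0 in all libraries, plekhs1.2 ranged from 1.01 to 122 and plekhs1.3 from 107 to 566.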

How the data were processed

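Total RNA of whole kidney marrow was depleted of ribosomal RNA and made into stranded libraries, per the labels' protocols. Tools named in the submitters' processing notes, with no role stated, are STAR (2.5.3a), featureCounts (1.5.2), DESeq2 (1.14.1) and bcl2fastq (2.17.1.14), and the build is GRCz10. How strand and reads shared by similar genes were counted is not given in the sources used here. The deposited signal per gene is a count normalized by the authors, per the file name with DESeq2. Within 1e-06, each column holds whole multiples of its smallest value above 0, whose sums are the depths given; that this value is 1 read is inferred. The authors' deposited table holds shrunken and unshrunken log2 fold changes, p-values and adjusted p-values, and a Wald score that was not used. Coordinates and lengths of the build were not used here, so no level is given per length, and statements on which gene added the most to a sum are about normalized counts, not transcript abundance.

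Symbols, known for 26433 of 32267 features, came from a table of gene names. Groups and replicate numbers came from the sample titles, and the column of each library from its label. Features with a mean of at least 10 were compared with limma 3.58.1 in R 4.3.3 on log2(normalized count + 1), with a variance trend and Benjamini-Hochberg adjustment over all fitted features at 0.05. For low genes, changes on this scale are understated. Intervals are 95%. The steps were tested on simulated data with known changes. The noise simulated besides counting noise was independent between genes, with no swings shared within a library. Its SD was below the median residual SD of all fitted genes here, 0.514 log2 units, so the simulation does not give the power in these data. The members and lists were chosen with earlier results of these data known. Values per library are given for lyz, npsn, CSF3R, cybb, the 3 members with the smallest p and the one with the highest mean normalized count in each role group, and 2 genes with the smallest p are named in each partner list. All pairs of libraries differed by more than sampling noise (smallest chi-square per degree of freedom 90.8). Alternatives changed the pseudocount, filter, scaling, variance model and threshold, added a replicate block, and left out each library. Those on control 1 with il7 mutant 2 and on control 2 with il7 mutant 2 were added after seeing the data.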

Additional observations from a re-analysis of the deposited data

How the results depend on the processing

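The limma count of called genes was 0 of the neutrophil genes and 0 over the whole table under all alternatives run: pseudocounts of 0.5 and 5, no filter, a filter at 50, rescaling by trimmed means, quantile normalization, no variance trend, array quality weights, the replicate block, a threshold of 0.1, oocyte-rich libraries as a term, and leaving out single libraries or the pairs named below. The smallest adjusted p of a neutrophil gene in any of them was 0.441, and the smallest unadjusted p was 0.00453, for MMP9 without control 1 and il7 mutant 2. Unadjusted p under 0.05 was reached by 492 to 1672 genes over the whole table. Count models on reads recovered from the normalized counts, planned for this comparison, were not run: in 3 libraries the smallest value lies so close to 1 (within 0.992 to 1.01) that the recovery of whole reads did not pass the check set for it, and the deposited values were treated as a normalized signal. Leaving out single libraries moved the count of negative neutrophil genes between 8 (control 2; 11 without il7 mutant 3) and 20, their median change between −0.22 and 0.057, and the medians of the granule, oxidase, receptor, leukotriene and other genes within 0.034 to 0.44, −0.36 to −0.024, −0.24 to 0.15, −0.31 to 0.046, −0.18 to 0.054. The median of the leukotriene pair was −0.49 without control 1 and il7 mutant 2, and that of the granule genes −0.11. The granule median was also negative with array quality weights (−0.044), and the receptor median was positive with quantile normalization (0.00063) and without control 2 and il7 mutant 2 (0.0094). The cause was not tested.

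Single genes took the opposite sign in some settings, none past the threshold. Without control 1 and il7 mutant 2 the log2 change was lyz −0.019, npsn −0.092, srgn −0.13, il6r −0.15. With array quality weights the log2 change was npsn −0.0070, srgn −0.082, il6r −0.20. Without control 2 and il7 mutant 2 the log2 change was NCF1 0.047, CSF3R 0.075, CXCR1 (ENSDARG00000054975) 0.53, fcer1gl 0.067, illr4 0.0094. With quantile normalization the log2 change was CSF3R 0.013, CXCR1 (ENSDARG00000054975) 0.021, fcer1gl 0.0016, illr4 0.00063, s100a10b 0.0073. With trimmed-mean rescaling the log2 change was il6r −0.0012. Over the 6 fits that each leave out 1 library, 17 genes changed sign at least once. They were neutrophil genes except for rac2, an oxidase partner, which ranged from −0.41 to 0.0079. Granule genes among them had ranges of scpp8 −0.45 to 0.0039 and srgn −0.0078 to 0.37. Oxidase genes had NCF1 −0.38 to 0.057, cyba −0.26 to 0.083 and cybb −0.51 to 0.14. Receptor and surface genes had CSF3R −0.36 to 0.36, cxcr1 (ENSDARG00000052088) −0.37 to 0.12, CXCR1 (ENSDARG00000054975) −0.42 to 0.24 and il6r −0.24 to 0.27. Further surface genes had itgb2 −0.29 to 0.072, fcer1gl −0.36 to 0.15, illr4 −0.34 to 0.24 and nccrp1 −0.21 to 0.11. The remaining ranges were LTA4H −0.29 to 0.067, LTB4R −0.40 to 0.035 and s100a10b −0.29 to 0.17.

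Same-numbered libraries deviated together in 1 of 3 pairs (correlations −0.51, −0.40, 0.51). The highest correlation, 0.73, was that of control 1 with il7 mutant 2, and both held many oocyte transcripts. As transcripts of other tissues were uneven, these correlations cannot show whether the numbers pair the samples. With the replicate block 0 genes were called, 634 had an unadjusted p under 0.05, and the count of 19 negative neutrophil genes and their median of −0.093 were the same values, as the block is balanced over the groups.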

Other observations

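Some granulocyte-related transcripts outside the neutrophil list were set apart by il7 mutant 2, and are named here after their values were seen. The lectin gene eslec had 1487, 5648 and 4493 normalized counts in the controls and 3217, 767 and 3288 in the mutants. Its lowest value was in il7 mutant 2 and the next lowest in control 1, the libraries rich in oocyte transcripts. The lipoxygenase features ALOX5 (ENSDARG00000043085) and alox5b.2 were also lowest in il7 mutant 2, at 43.6 and 13.9, while alox5b.3 stood there at 6287, between its lowest value of 5478 in il7 mutant 3 and its highest of 14027 in control 2.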
